A study of Rattus norvegicus with 10 samples.

Results

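Genes of peptide signalling in the brain, 10 in number, were followed across the left hippocampus of 10 rats. They were listed by name, with earlier results of these data known, and the list itself uses no measured value. They are the peptide precursors Penk, Pdyn, Tac1, Cartpt and Adcyap1, the granins Scg2, Vgf, Chga and Chgb, and the prohormone convertase Pcsk1. All 10 were found among the 17168 genes of the deposited table, and all 10 were among the 12161 genes tested. The animals were male TgF344-AD rats aged 11 months, an Alzheimer's disease model that carries mutant human transgenes under the mouse prion promoter. Both groups carried these transgenes. In the untreated group, 5 rats ate plain rodent chow, and in the RG2833 group 5 rats ate chow holding 750 mg per kg of RG2833, which blocks 2 histone deacetylases, HDAC1 and HDAC3. Treatment began at 5 months and ran for 6 months. The design text names a different drug, ibudilast, in its sentence on timing, and the title and the label of each sample, which name RG2833, were followed. Neither wild-type nor female rats were analysed here. Each library came from 1 rat, so the p-values measure the spread between animals.

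Neuropeptides are made as large precursors that enter the regulated secretory pathway. Granins are acidic proteins that help form and fill dense-core vesicles and are themselves cut into peptides, and convertases such as the product of Pcsk1 cut the precursors at pairs of basic residues inside the maturing vesicle. In the hippocampus, dynorphin from Pdyn is best known from dentate granule cells and their mossy fibres, and several of these genes are known targets of neuronal activity through the transcription factor CREB.

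Upstream sequence is shown for the matched genes that held the CREB element described below, and for Pdyn and Chgb, whose levels are set beside that of Scg2 in the results. RefSeq windows of the GRCr8 assembly were matched for 7 of the 10 genes, Penk, Chga and Pcsk1 having no entry. In the 250 bases before the annotated start, both strands were searched for the CREB element TGACGTCA, which reads the same on both strands, for the AP-1 element TGANTCA and for TATAAA. None of these overlaps another in its letters. The CREB element was in 1.59% of 33469 windows and in 3 of the 7 matched genes, Scg2, Vgf and Cartpt. The AP-1 element was in 6.34% of all windows and in 0 of the 7. TATAAA was in 12.9% of all windows and in 3 of the 7, Adcyap1, Pdyn and Vgf. The stretches below hold the CREB element in capitals for Scg2 (chr9:88256971-88257000, minus strand, element at -123 to -116), Vgf (chr12:25277092-25277121, minus strand, -90 to -83) and Cartpt (chr2:32991359-32991388, minus strand, -142 to -135), and TATAAA in capitals for Pdyn (chr3:137366504-137366603, minus strand, -13 to -8). Chgb (chr3:140496612-140496711, plus strand) had none of the 3 motifs in its window. Positions are counted from the annotated start.
Scg2: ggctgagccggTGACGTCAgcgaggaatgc
Vgf: tgaatgaacatTGACGTCAatggggcgggg
Cartpt: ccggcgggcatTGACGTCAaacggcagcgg
Pdyn: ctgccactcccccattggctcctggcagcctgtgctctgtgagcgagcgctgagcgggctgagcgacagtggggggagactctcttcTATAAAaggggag
Chgb: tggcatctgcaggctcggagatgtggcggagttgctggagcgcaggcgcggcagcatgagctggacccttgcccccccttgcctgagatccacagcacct
The gene's annotated span begins further upstream than the start site of the window by 342 bases for Scg2, 4783 for Vgf, 559 for Cartpt, 239 for Tac1 and 12623 for Adcyap1, and by 0 for Pdyn and Chgb, so that other start sites of the former 5 were not searched. A match describes the letters only.

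Depth was similar across libraries, with 15118203 to 18533520 total expected counts (RSEM estimates of reads per gene) each, of which the 10 genes took from 0.0919% to 0.180%. Levels are given as CPM, the count scaled to a fixed library size after adjustment of that size by edgeR's TMM method, and no level was compared between genes, since gene lengths were not used. Of the listed markers of dentate granule, CA1 and CA3 cells, 10, 9 and 6 were tested and had counts in every library. Several libraries stood apart before any comparison. Untreated replicate 2 and RG2833 replicate 1 were rich in choroid plexus RNA, with 6929 and 8190 CPM of Ttr, the transthyretin gene of that epithelium, against 3.11 to 236 CPM in the other 8. Untreated replicate 3 was low in markers of dentate granule cells and CA3 pyramidal cells and high in microglial markers. Prox1, the granule cell transcription factor, was at 4.30 CPM in that library and at 21.5 to 50.5 CPM in the others. In whole tissue, fewer cells of a type and less RNA per cell cannot be told apart.

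No gene of the group differed between RG2833 and untreated rats after adjustment over all genes. Cartpt and Penk had the smallest unadjusted p-values, both with lower means in RG2833 rats. For Pdyn, Scg2, Adcyap1 and Pcsk1 the log2 ratio of RG2833 over untreated lay between -0.08 and 0.09, while the spread among animals reached 6.10-fold for Pdyn. By edgeR's quasi-likelihood test with Benjamini-Hochberg adjustment, 0 of the 10 genes had an adjusted p under 0.05, where 0% of all 12161 genes did. DESeq2 also gave 0 of the 10, and 7 of all genes. At an unadjusted p under 0.05 there were 2 of 10, both lower, against 2.71% of all genes lower and 5.66% in either direction. Cartpt, 1 of the 2, entered the test only through the group where it was higher, and when at least 1 CPM was required in every library it was not tested and 1 such gene was left. Omitting untreated replicate 1 or RG2833 replicate 5 also left 1, against 5.21% and 3.47% of all genes on those omissions. There were 3 without untreated replicate 2, against 4.17% of all genes, and 3 without untreated replicate 3, against 14.2%. The log2 fold change, or log2 ratio, of RG2833 over untreated was below 0 for 8 of the 10, against 53.5% of all genes, and its median was -0.19 over the 10 genes and -0.01 over all genes tested. The CPM ranges of the groups overlapped for all 10, whereas for 1% of all genes they did not.

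**Figure D1:**
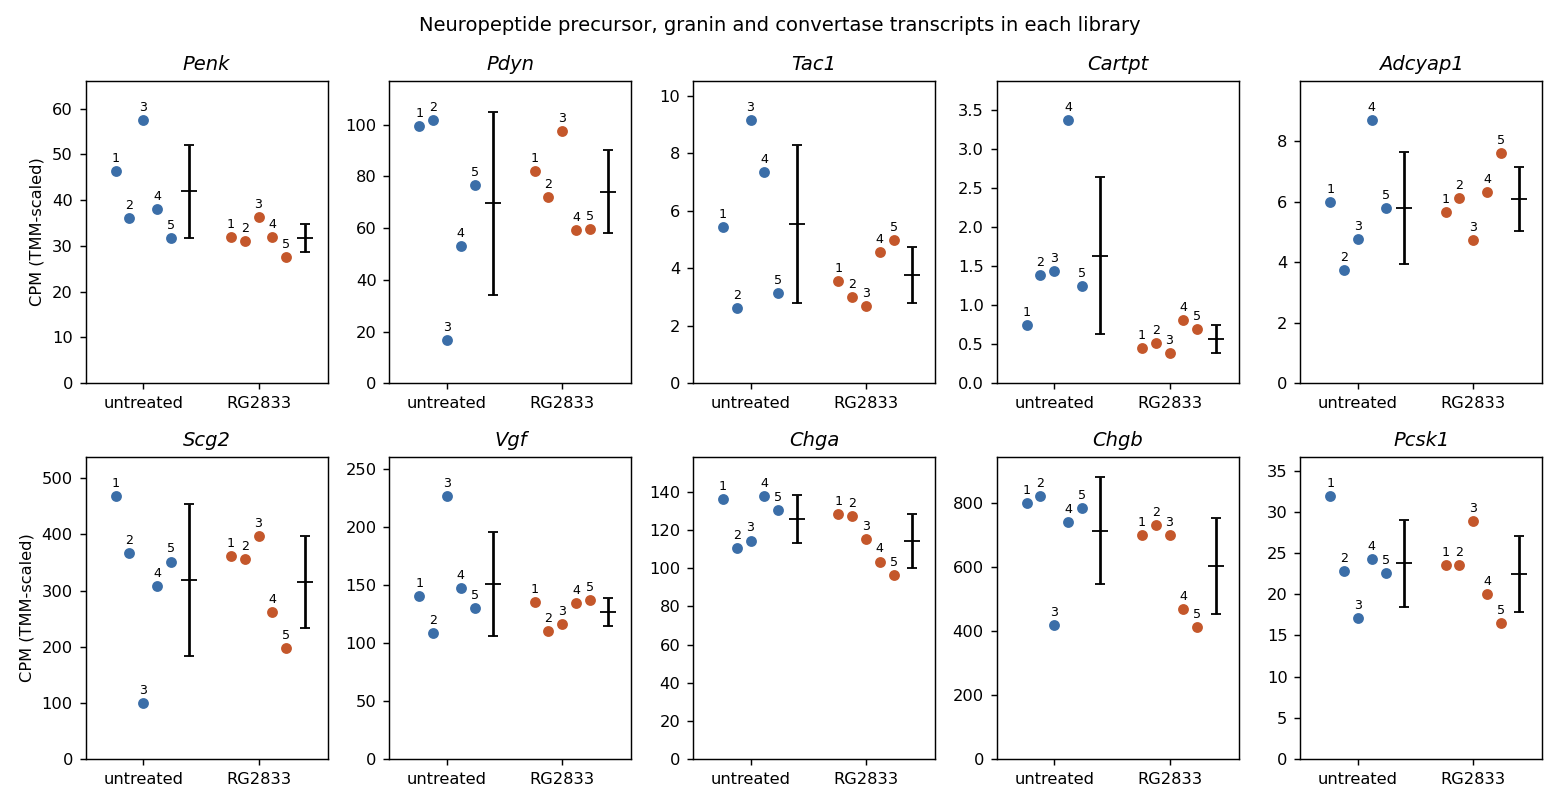
Level of each of the 10 genes (vertical axis, CPM on TMM-scaled library sizes, from 0) in each of the 5 untreated and 5 RG2833 libraries, 1 point per library with its replicate number, beside the group mean and bars of 1 SD. The groups overlap in every panel, and untreated replicate 3 is the lowest library for Pdyn and Scg2 and the highest for Penk, Tac1 and Vgf.

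**Figure D2:**
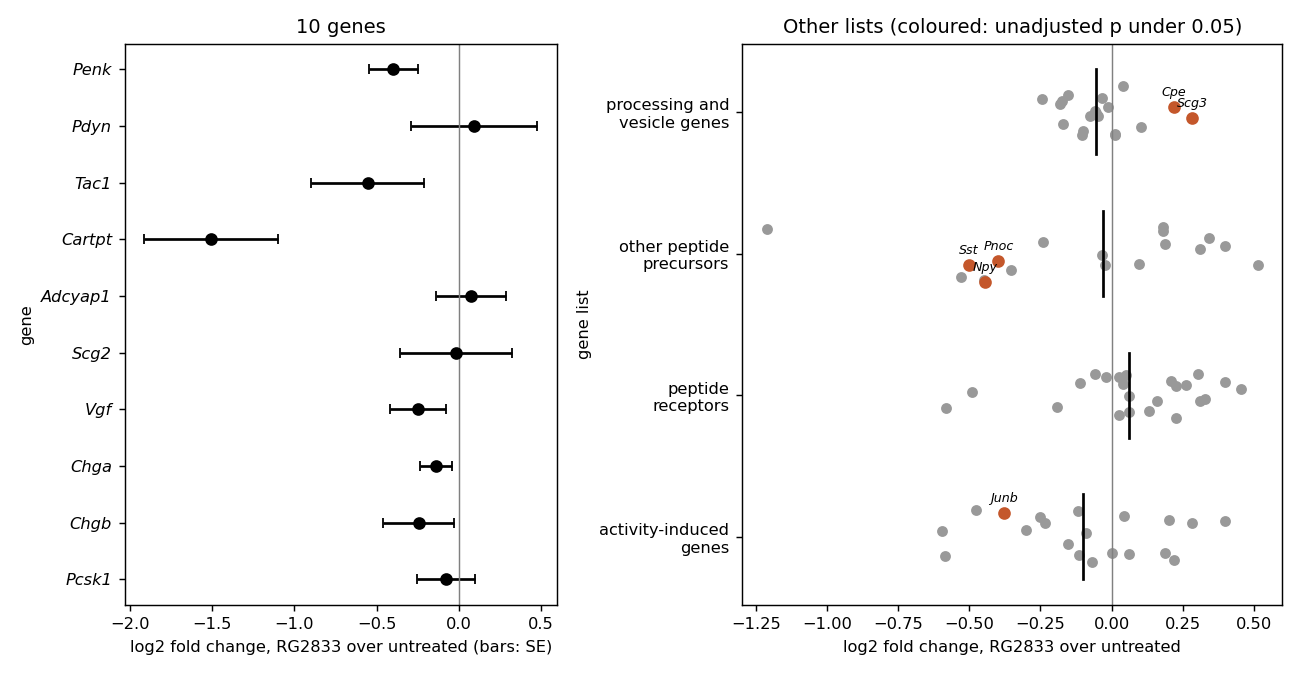
Left, log2 fold change of RG2833 over untreated for each of the 10 genes, with bars of 1 standard error, where Cartpt lies farthest from 0 at -1.50. Right, the same quantity for each tested gene of 4 other lists, with a line at the median of each list and the 6 genes at an unadjusted p under 0.05 coloured and named, none of which passed adjustment.

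Cartpt, the precursor of the CART peptides, had few reads in hippocampus. Untreated replicates 1 to 5 held 0.750, 1.38, 1.43, 3.37 and 1.25 CPM, from 13, 27, 24, 55 and 23 counts. The RG2833 replicates held 0.452, 0.511, 0.384, 0.814 and 0.692 CPM, from 7, 9, 6, 13 and 10 counts. Of the 5 RG2833 libraries, 4 lay below every untreated library, and RG2833 replicate 4 lay just above untreated replicate 1, the single overlap. The means were 1.64 ± 1.00 and 0.570 ± 0.178 CPM (SD, n = 5 each), which is a log2 ratio of -1.50 (SE 0.407). Its unadjusted p was 0.00370, rank 32 among all genes, and its edgeR adjusted p was 0.841, and it did not pass. On mean log2 CPM, a two-sided exact permutation test gave p = 0.0159, where the smallest value possible with 5 against 5 is 0.00794. Without the 2 libraries rich in choroid plexus RNA, a comparison chosen after seeing the data, the exact p was 0.0571 and the log2 ratio -1.50. The gene entered the test through the untreated group, since all 5 untreated but only 2 RG2833 libraries reached the filter's 0.601 CPM. Untreated replicate 4 held the highest value, and without it the log2 fold change was -1.07.

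Markers of neighbouring hypothalamus and septum are given beside Cartpt, since their means were also lower in RG2833 rats. Of 9 such markers, 5 had enough counts to be tested and all 5 had log2 fold changes below 0, against 53.5% of all genes. As the list is shown for that direction, this count and the next restate that choice. At an unadjusted edgeR p under 0.05 and lower there were 2, the transcription factor genes Nkx2-1 and Zic1, against 2.71% of all genes. Nkx2-1 had means of 2.01 ± 1.58 and 0.841 ± 0.229 CPM (log2 ratio -1.25, SE 0.493, edgeR p = 0.0282 and adjusted p = 0.841, exact permutation p = 0.103). Zic1 had means of 14.7 ± 10.8 and 6.33 ± 3.30 CPM (log2 ratio -1.22, SE 0.520, edgeR p = 0.0398 and adjusted p = 0.841, exact permutation p = 0.135). Both were highest in untreated replicate 4, as Cartpt was, at 4.59 and 26.7 CPM, and Zic1 was nearly as high in untreated replicate 2 at 26.1 CPM. Without untreated replicate 4 the log2 fold change of Nkx2-1 was -0.71 and that of Zic1 -0.89, and neither had an unadjusted edgeR p under 0.05, which was also so in 5 and 6 of the 10 omissions of a single library, that one included. The summed level of the list ran from 27.0 to 86.2 CPM in untreated and from 28.6 to 46.5 CPM in RG2833 libraries. Otp, Nr5a1 and Lhx8 were at 0 counts in 6, 5 and 6 of the 10 libraries. Across the 10 libraries, Cartpt and the mean log2 CPM of the list had a Pearson r of 0.73 and a Spearman rho of 0.55 (permutation p = 0.0165 and 0.104, adjusted 0.0931 and 0.353 over 130 pairs of a gene and a list), and r was 0.60 without the 2 libraries farthest from the median of Cartpt. With the thalamus list the values were as high, r = 0.74 and rho = 0.75 (permutation p = 0.0132 and 0.0176, adjusted 0.0818 and 0.163), and r was 0.51 on that omission. Neither relation passed. The part of these cells in the Cartpt difference was not tested.

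Penk, the precursor of the enkephalins, had a coefficient of variation of 9.80% in RG2833 rats and 24.3% in untreated rats. Untreated replicates 1 to 5 held 46.5, 36.2, 57.4, 38.0 and 31.6 CPM. The RG2833 replicates held 31.9, 31.1, 36.3, 32.0 and 27.6 CPM. All 5 RG2833 libraries lay below the untreated mean, 3 untreated libraries lay above every RG2833 library, and the ranges overlapped between 31.6 and 36.3 CPM. The means were 41.9 ± 10.2 and 31.8 ± 3.11 CPM (n = 5 each), which is a log2 ratio of -0.40 (SE 0.149). Its unadjusted p was 0.0220 and its edgeR adjusted p 0.841, and the two-sided exact permutation p was 0.0556. The unadjusted edgeR p was 0.0511 when untreated replicate 1 was omitted and 0.0537 when RG2833 replicate 5 was, and over the omissions of single libraries the exact p ran from 0.0238 to 0.119. Untreated replicate 3 was highest for Penk, an abundant transcript of striatal neurons, and without this library the log2 fold change was -0.26. The 11 tested striatal markers summed to between 365 and 460 CPM in untreated and between 384 and 534 CPM in RG2833 libraries, and their extremes were Drd1 at -0.21 and Gpr6 at 0.23 on the log2 scale. Across the 10 libraries Penk and the striatal list had r = -0.11 and rho = -0.05 (permutation p = 0.776 and 0.890, adjusted 0.933 and 0.980 over the 130 pairs). The list with the smallest p for Penk was that of CA1 pyramidal cells (r = -0.75, rho = -0.83, permutation p = 0.00881 and 0.00467, adjusted 0.0603 and 0.0867), which did not pass, with r = -0.62 without untreated replicates 1 and 3. The mean log2 CPM of the 9 CA1 markers was 5.76 ± 0.274 in untreated and 6.03 ± 0.203 in RG2833 libraries, a difference of 0.27. The part of striatal or CA1 RNA in the Penk difference was not tested.

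Pdyn, the dynorphin precursor, did not differ between the groups beyond their spread. Untreated replicates 1 to 5 held 99.6, 102, 16.7, 53.0 and 76.9 CPM, and the RG2833 replicates held 82.0, 72.1, 97.5, 59.4 and 59.7 CPM. Untreated replicate 3 was the lowest of all 10 libraries, and the RG2833 range lay inside the untreated one. The means were 69.6 ± 35.6 and 74.1 ± 16.1 CPM (n = 5 each; log2 fold change 0.09, SE 0.385, edgeR adjusted p = 0.991), and mean log2 CPM differed by 0.31. Untreated replicate 3 held 0.201 times the mean of the other 4 untreated libraries, and without it the log2 fold change of Pdyn was -0.16, whereas without untreated replicate 2 it was 0.27.

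Tac1, the precursor of substance P and neurokinin A, was at 5.42, 2.61, 9.13, 7.35 and 3.15 CPM in untreated replicates 1 to 5. It was at 3.55, 3.01, 2.69, 4.57 and 4.98 CPM in the RG2833 replicates. In all, 3 untreated libraries exceeded all RG2833 libraries, while untreated replicate 2 was the lowest of the 10, so the RG2833 range lay inside the untreated one. The means of 5.53 ± 2.76 and 3.76 ± 0.988 CPM (n = 5 each) gave a log2 fold change of -0.55 (SE 0.341, edgeR adjusted p = 0.852, exact permutation p = 0.278). Untreated replicate 3 was the highest library, and without it the log2 fold change of Tac1 was -0.30 (exact permutation p = 0.548). Without untreated replicate 2 it was -0.74 (exact permutation p = 0.103), with an unadjusted edgeR p under 0.05 that did not pass adjustment. Adcyap1, the precursor of the vasodilator and trophic peptide PACAP, was at 6.00, 3.74, 4.78, 8.69 and 5.81 CPM in untreated and at 5.68, 6.13, 4.73, 6.33 and 7.61 CPM in RG2833 replicates. The lowest and the highest library were both untreated. Its means were 5.80 ± 1.85 and 6.10 ± 1.05 CPM (log2 ratio 0.07, SE 0.214, edgeR adjusted p = 0.982). Leaving out untreated replicate 2 turned the log2 ratio of Adcyap1 to -0.05, leaving out RG2833 replicate 5 turned it to -0.02, and it was 0.26 with untreated replicate 4 omitted.

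Among the granins, Chgb and Scg2 shared a low value in untreated replicate 3. Scg2, the precursor of secretoneurin, was at 468, 368, 99.7, 308 and 352 CPM in untreated replicates 1 to 5 and at 362, 357, 397, 262 and 198 CPM in the RG2833 replicates. Chgb, or chromogranin B, was at 799, 821, 419, 741 and 786 CPM in untreated and at 699, 731, 701, 468 and 412 CPM in RG2833 replicates. In both genes RG2833 replicates 4 and 5 were the lowest 2 of their group, and the ranges overlapped. The means of Scg2 were 319 ± 136 and 315 ± 82.5 CPM (log2 ratio -0.02, SE 0.341, edgeR adjusted p = 0.996), and the difference in mean log2 CPM had the other sign, at 0.10. Those of Chgb were 713 ± 167 and 602 ± 150 CPM (log2 ratio -0.24, SE 0.215, edgeR adjusted p = 0.918). Without untreated replicate 3 the log2 fold change was -0.24 for Scg2 and -0.38 for Chgb. On that omission Chgb had an unadjusted edgeR p under 0.05, as 14.2% of all genes did, and it did not pass adjustment. Without untreated replicate 1 the log2 fold change of Scg2 was 0.16. Without RG2833 replicate 4 or 5 that of Chgb was -0.16 or -0.13.

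Vgf, a granin-like precursor induced by nerve growth factor, ran the other way in untreated replicate 3. It was at 141, 109, 227, 148 and 130 CPM in untreated replicates 1 to 5 and at 135, 111, 117, 135 and 137 CPM in the RG2833 replicates. Untreated replicate 3 was the highest of the 10 libraries, and the other 9 lay between 109 and 148 CPM. The means were 151 ± 44.98 and 127 ± 12.3 CPM (log2 ratio -0.25, SE 0.171, edgeR adjusted p = 0.881), and without untreated replicate 3 the log2 fold change was -0.06. Chga, or chromogranin A, varied least, from 96.4 to 138 CPM. Its untreated replicates were at 136, 111, 115, 138 and 131 CPM and its RG2833 replicates at 128, 128, 115, 104 and 96.4 CPM. RG2833 replicates 4 and 5 lay below every untreated library. The means of Chga were 126 ± 12.6 and 114 ± 14.2 CPM (log2 ratio -0.14, SE 0.0988, edgeR adjusted p = 0.886), and without RG2833 replicate 5 the log2 ratio was -0.08. Without the 2 libraries rich in choroid plexus RNA it was -0.24 for Chga and -0.38 for Vgf. The deposited expected counts of Chga were not whole numbers and were rounded, and the origin of the fractions was not examined.

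Pcsk1, which encodes the convertase PC1/3, was at 31.9, 22.8, 17.1, 24.2 and 22.6 CPM in untreated replicates 1 to 5. It was at 23.6, 23.5, 28.9, 20.04 and 16.5 CPM in the RG2833 replicates. The highest library was untreated replicate 1 and the lowest was RG2833 replicate 5, and the groups overlapped over most of their range. The means were 23.7 ± 5.31 and 22.5 ± 4.63 CPM (log2 ratio -0.08, SE 0.176, edgeR adjusted p = 0.976). The log2 ratio of Pcsk1 turned to 0.05 when untreated replicate 1 was left out and to 0.02 when RG2833 replicate 5 was, and it was -0.18 with RG2833 replicate 3 omitted.

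The genes differed widely in how much they varied between animals of the same group. The biological coefficient of variation from edgeR, which is the spread beyond counting noise, was 42.2% for Pdyn, 39.5% for Cartpt, 37.4% for Scg2 and 37.2% for Tac1, against a common value of 21.0% and a median gene at 14.4%. It was 24.4% for Chgb and 24.0% for Adcyap1, and it was below the common value for Pcsk1 (20.5%), Vgf (19.7%), Penk (17.8%) and Chga (12.5%). Thus 6 of the 10 genes lay above the common value, while the median gene lay below it. The share of all genes above it was not counted. The coefficient of variation of CPM was larger in the untreated than in the RG2833 group for 8 of the 10 genes, where it was so for 68.3% of all genes. Without untreated replicate 3 these shares were 6 of 10 and 42.0%.

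**Figure D3:**
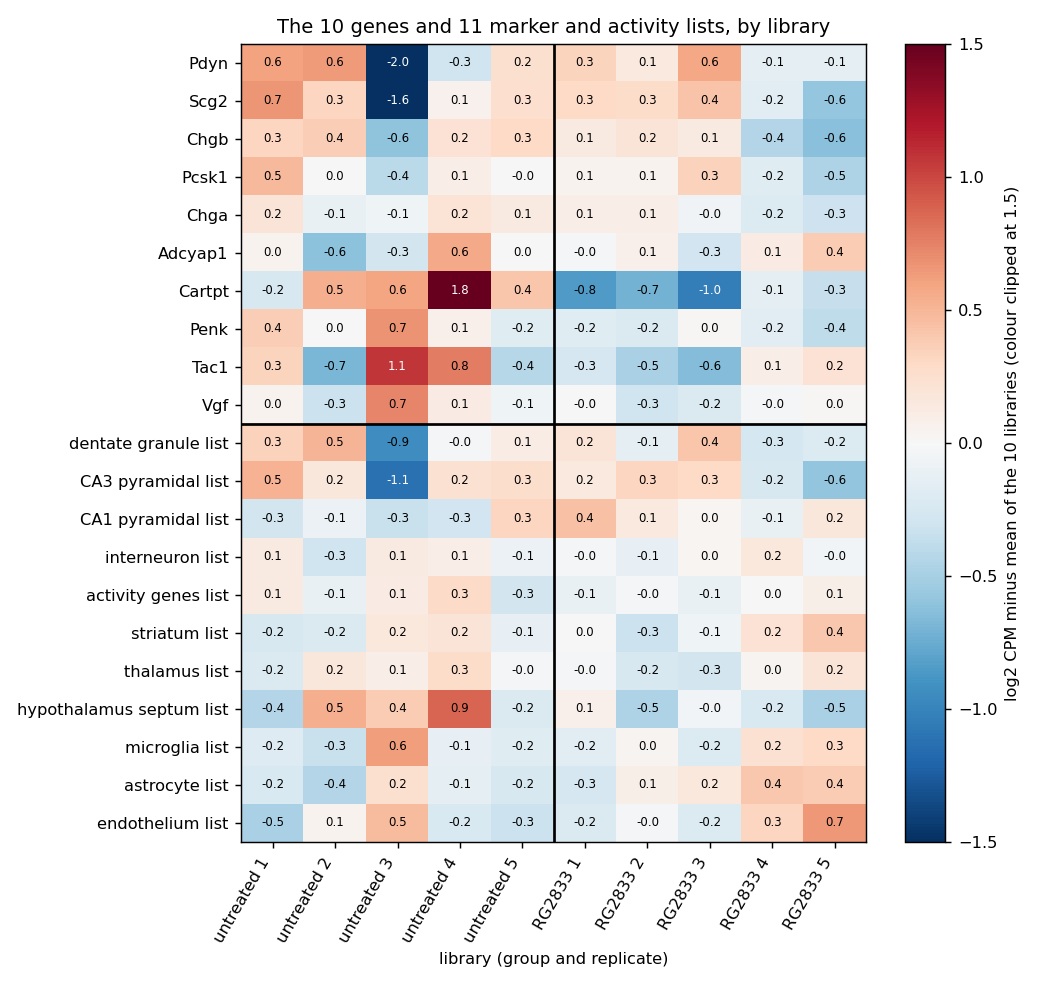
Log2 CPM of the 10 genes (upper rows) and mean log2 CPM of 11 marker and activity lists (lower rows) in each library, as the difference from the mean over the 10 libraries (colour and printed value, log2 units, colour limited to 1.5 either way). Untreated replicate 3 is low for Pdyn, Scg2, Chgb and the dentate granule and CA3 lists, and high for Penk, Tac1, Vgf and the microglial list.

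Some of the genes varied together across the 10 libraries, irrespective of treatment. Of 45 pairs, 7 passed an adjusted permutation p of 0.05 for Pearson r of log2 CPM, 5 positive and 2 negative. How large a share of all gene pairs was related as strongly was not computed. By Spearman rho, 2 of these 7 passed as well, Tac1 with Vgf and Pdyn with Scg2. Without RG2833 replicate 4 there were 3 such pairs, and without RG2833 replicate 5 there were 4. Tac1 and Vgf formed the pair with the smallest p (r = 0.88, rho = 0.98, permutation p = 3e-05 and 2e-05, adjusted 0.00135 and 0.0009), and r was 0.86 without untreated replicates 3 and 4, the libraries farthest from the median of Tac1, and 0.88 without untreated replicate 3. Both genes were highest in untreated replicate 3. Pdyn and Scg2 had r = 0.94 and rho = 0.90 (permutation p = 0.00043 and 0.00077, adjusted 0.00967 and 0.0173), with r = 0.86 without the 2 farthest libraries. Without untreated replicate 3 the r of Pdyn and Scg2 was 0.77 and its adjusted permutation p was 0.0509.

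Scg2 also varied with Pcsk1 and Chgb. For Scg2 and Pcsk1, r was 0.84 and rho 0.83 (permutation p = 0.00073 and 0.0048, adjusted 0.0109 and 0.0720), r was 0.86 without the 2 farthest libraries, and the relation passed in all 13 alternatives run. For Scg2 and Chgb, r was 0.85 and rho 0.70 (permutation p = 0.00126 and 0.0307, adjusted 0.0142 and 0.259), with r = 0.73 without the 2 farthest. Chgb and Pcsk1 had r = 0.82 and rho = 0.59 (permutation p = 0.00241 and 0.0786, adjusted 0.0217 and 0.393), and r dropped to 0.51 without untreated replicate 3 and RG2833 replicate 5, so this relation rests on those libraries, and it passed in 10 of the 13 alternatives. Scg2, Chgb and Pcsk1 were all low in untreated replicate 3 and RG2833 replicate 5.

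Both negative pairs joined Pdyn to a gene that was highest in untreated replicate 3, and both rest on few libraries. Pdyn and Tac1 had r = -0.78 and rho = -0.68 (permutation p = 0.00349 and 0.0346, adjusted 0.0262 and 0.259), and r was -0.43 without untreated replicates 3 and 4. Pdyn and Vgf had r = -0.90 and rho = -0.60 (permutation p = 0.00713 and 0.0735, adjusted 0.0458 and 0.393), and r was -0.36 without the same libraries. Over the 13 alternatives these pairs passed in 7 and 5. Without untreated replicate 3 alone, r was -0.64 and -0.53 and neither pair passed, with adjusted permutation p of 0.208 and 0.328. Penk was highest in the same library, and its pair with Pdyn did not pass (r = -0.54, rho = -0.05, permutation p = 0.12 and 0.891, adjusted 0.285 and 0.891), with r = 0.48 without that library.

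The 3 genes with the CREB element in the windows printed above formed no pair that passed. Scg2 and Vgf had r = -0.81 and rho = -0.47 (permutation p = 0.0233 and 0.178, adjusted 0.0947 and 0.425), and r was -0.19 without the 2 farthest libraries. Cartpt and Scg2 had r = -0.28 and rho = -0.45 (permutation p = 0.421 and 0.192, adjusted 0.653 and 0.425), and r was -0.39 without the 2 farthest. Cartpt and Vgf had the other sign, with r = 0.39 and rho = 0.39 (permutation p = 0.255 and 0.264, adjusted 0.460 and 0.425), and r was 0.35 on that omission.

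**Figure D4:**
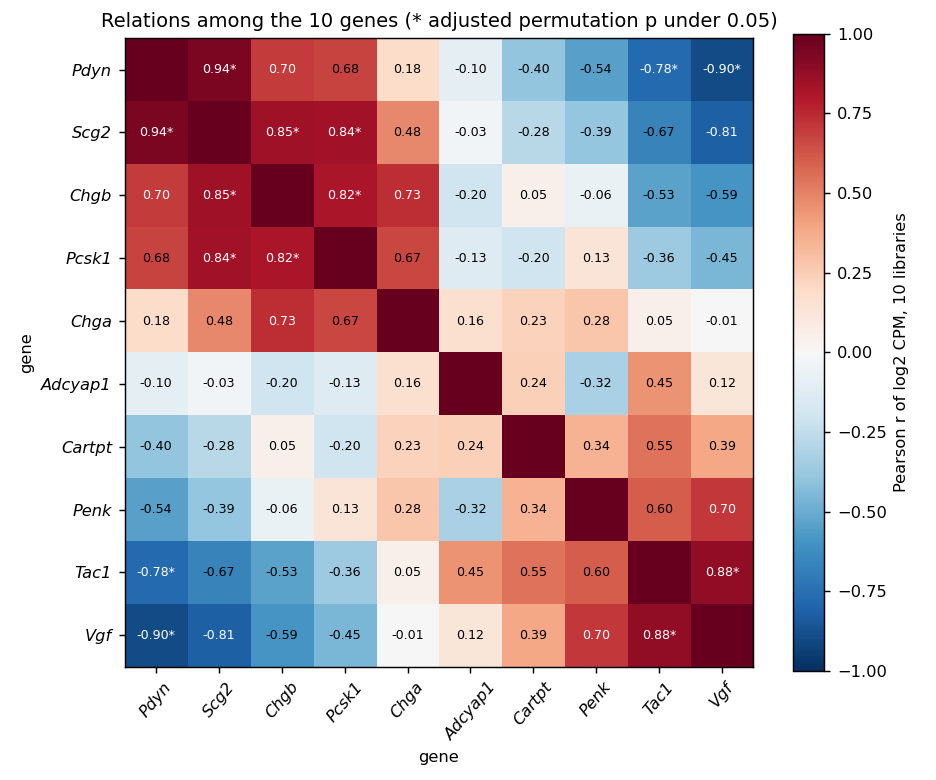
Pearson r of log2 CPM over the 10 libraries for every pair among the 10 genes (colour and printed value), with a star on the 7 pairs whose adjusted permutation p is under 0.05. Pdyn, Scg2, Chgb and Pcsk1 form a block of positive values, Tac1 and Vgf are joined at 0.88, and Pdyn is negative with Tac1 and Vgf.

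The levels of several genes followed markers of hippocampal cell types. Of 130 pairs of a gene and a list, 18 passed, 8 positive and 10 negative. The share of all genes related as strongly to these lists was not computed. Many genes shared these profiles, 573 having r over 0.9 with Scg2 and 642 with Chgb, so the count does not set the peptide genes apart. By Spearman rho, 5 of the 18 passed as well, namely Pdyn and Scg2 with the dentate granule list, Pdyn and Scg2 with the microglial list, and Chga with the endothelial list. Without RG2833 replicate 4 there were 6 such pairs, and without untreated replicate 1 there were 9. Pdyn followed the mean of 10 dentate granule cell markers (r = 0.94, rho = 0.92, permutation p = 0.0001 and 0.00049, adjusted 0.0065 and 0.0312), and r was 0.97 without its 2 farthest libraries and 0.89 without untreated replicate 3. Scg2 followed the mean of 6 CA3 pyramidal cell markers (r = 0.98, rho = 0.78, permutation p = 8e-05 and 0.0104, adjusted 0.0065 and 0.113), with r of 0.88 and 0.95 on the same omissions. These relations passed in all 13 alternatives.

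Pcsk1 also followed the CA3 list (r = 0.87, rho = 0.79, permutation p = 0.00026 and 0.0087, adjusted 0.00845 and 0.113), with r = 0.86 without its 2 farthest libraries. Chgb did so as well (r = 0.91, rho = 0.71, permutation p = 0.00091 and 0.0265, adjusted 0.0131 and 0.191), with r = 0.85 on that omission. Scg2 and the dentate granule list had r = 0.91 and rho = 0.90 (permutation p = 0.00049 and 0.00075, adjusted 0.0113 and 0.0312), and r was 0.75 without the 2 farthest libraries. The remaining positive pairs were Tac1 with the activity list, Chgb with the dentate granule list (r = 0.79, rho = 0.73, permutation p = 0.00253, adjusted 0.0253) and Pdyn with the CA3 list (r = 0.86, rho = 0.56, permutation p = 0.00556, adjusted 0.0437). Without their 2 farthest libraries the r of the latter pairs were 0.65 and 0.78. Without untreated replicate 3, 11 of the 18 pairs passed. Over the 13 alternatives, the pair of Chgb and the dentate granule list passed in 8 and that of Pdyn and the CA3 list in 5. The positive pairs that did not pass without untreated replicate 3 were Scg2 with the dentate granule list (r = 0.75, adjusted permutation p = 0.104), Chgb with the dentate granule list (r = 0.70, adjusted permutation p = 0.162) and Pdyn with the CA3 list (r = 0.58, adjusted permutation p = 0.294).

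**Figure D5:**
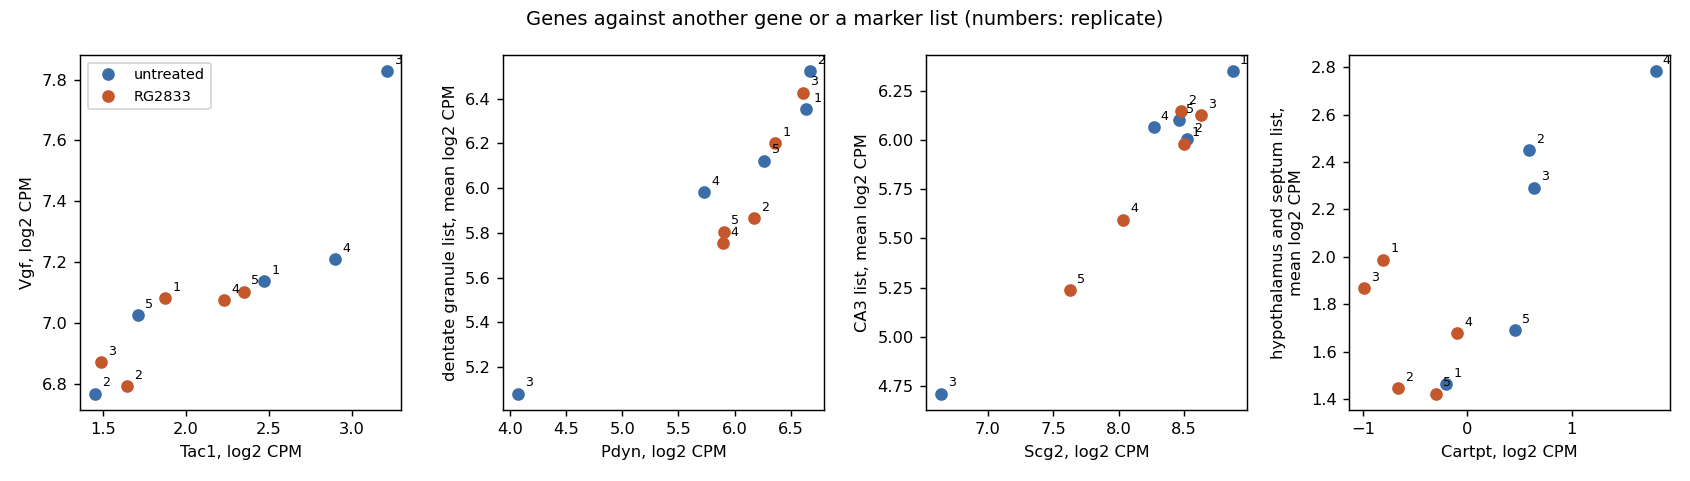
From left to right, log2 CPM of Tac1 against Vgf, and of Pdyn, Scg2 and Cartpt against the mean log2 CPM of the dentate granule, CA3 and hypothalamus and septum lists, 1 point per library with its replicate number, coloured by group. Points of both groups lie along 1 line in the first 3 panels, with untreated replicate 3 at an end of each, and in the fourth panel untreated replicate 4 is highest on both axes.

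The negative relations were with non-neuronal lists and, for Chgb, with striatal markers, and 3 of the 10 passed by rank as well. The p-values of this paragraph are those of Pearson r unless Spearman rho is named. By Spearman rho the adjusted permutation p were 0.113, 0.128, 0.208 and 0.169 for Chgb with microglial, astrocyte, endothelial and striatal markers, 0.113 and 0.218 for Pcsk1 with endothelial and microglial markers, and 0.253 for Scg2 with endothelial markers. Chgb was lower where microglial markers were higher (r = -0.92, rho = -0.81, permutation p = 0.00068, adjusted 0.0123), and likewise for astrocyte markers (r = -0.85, rho = -0.77, permutation p = 0.00076, adjusted 0.0123). It was also lower where endothelial (r = -0.90, rho = -0.70, permutation p = 0.00175, adjusted 0.019) and striatal (r = -0.80, rho = -0.73, permutation p = 0.00572, adjusted 0.0437) markers were higher. Without the 2 libraries farthest from the median of Chgb, these r were -0.86, -0.84, -0.71 and -0.67. These 4 lists were above their means in RG2833 replicate 5, where Chgb was lowest. Endothelial markers also ran against Pcsk1 (r = -0.91, rho = -0.78, permutation p = 0.00019, adjusted 0.00823), Chga (r = -0.86, rho = -0.92, permutation p = 0.00148, adjusted 0.019) and Scg2 (r = -0.81, rho = -0.64, permutation p = 0.00291, adjusted 0.027), with r of -0.81, -0.69 and -0.76 without the 2 farthest libraries. Microglial markers also ran against Scg2 (r = -0.93, rho = -0.89, permutation p = 0.00052, adjusted 0.0113), Pdyn (r = -0.88, rho = -0.89, permutation p = 0.00163, adjusted 0.019) and Pcsk1 (r = -0.78, rho = -0.67, permutation p = 0.00609, adjusted 0.044), with r of -0.69, -0.93 and -0.82 on that omission. Without untreated replicate 3, the microglial relations of Scg2, Pdyn and Pcsk1 and the endothelial relation of Chgb did not pass (adjusted permutation p = 0.0503, 0.163, 0.160 and 0.0658). Of the 13 alternatives run, the pair of Chgb and striatal markers passed in 5 and that of Pcsk1 and microglial markers in 3, and with median-of-ratios scaling neither passed (adjusted permutation p = 0.0516 and 0.0719). The pair of Pcsk1 and endothelial markers passed in 13, and the other 7 negative pairs passed in 9 to 12. CPM are shares of a library, so a change in 1 cell type and the opposite change in the rest cannot be told apart. Penk, Cartpt, Adcyap1 and Vgf passed with no list. No pair with the choroid plexus list passed, and its r are not given, since its values fell into separate clusters of 2 and 8 libraries.

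Tac1 had a relation with genes induced by neuronal activity. The mean log2 CPM of 20 activity genes and Tac1 had r = 0.82 and rho = 0.83 (permutation p = 0.0033 and 0.00463, adjusted 0.0286 and 0.0867), with r = 0.77 without untreated replicates 3 and 4 and 0.87 without untreated replicate 3. The relation passed in 6 of the 13 alternatives. Between the groups, 8 of these 20 activity genes had log2 fold changes above 0 and 12 below 0, with a median of -0.10. Genes below 0 made up 53.5% of all genes. Junb, an AP-1 subunit, was the only activity gene at an unadjusted edgeR p under 0.05, and it did not pass (79.0 ± 13.4 and 60.8 ± 9.71 CPM, log2 ratio -0.38, edgeR p = 0.0206 and adjusted p = 0.841, exact permutation p = 0.0635). That is 1 lower gene of 20, against 2.71% of all genes, and its unadjusted p was at or above 0.05 in 3 of the 10 omissions of a single library. The extremes were the activity-dependent factors Npas4 at -0.60 and Nr4a2 at 0.40, while Fos was at -0.11 and Bdnf, a neurotrophin gene, at -0.07.

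None of the other genes of peptide processing and secretion passed the test between the groups. Of 20 listed, 19 were tested, 6 with log2 fold changes above 0 and 13 below 0, with a median of -0.05, and 0 passed adjustment. Among all genes, 53.5% were below 0. At an unadjusted edgeR p under 0.05 there were 2, both higher, against 2.94% of all genes. Scg3, a granin-related protein that binds chromogranin A in secretory granules, had means of 425 ± 31.8 and 517 ± 43.0 CPM (log2 ratio 0.28, SE 0.0810, unadjusted edgeR p = 0.00513, exact permutation p = 0.0159). Cpe, the carboxypeptidase that trims peptides after the convertases have cut, was at 2796 ± 230 and 3257 ± 295 CPM (0.22, SE 0.0949, unadjusted edgeR p = 0.0414, exact permutation p = 0.0397). When single libraries were omitted, the unadjusted p of Cpe was at or above 0.05 in 8 of 10 cases and that of Scg3 in 0. Pcsk2, the other main neuronal convertase, was at 207 ± 51.6 and 192 ± 36.7 CPM (log2 ratio -0.10), and the lowest value of the list was -0.24 at Qpct, a glutaminyl cyclase counted under an older name.

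Among other peptide precursors, 18 of 27 were tested, 8 above and 10 below 0 on the log2 scale, with a median of -0.03. Genes below 0 made up 53.5% of all genes. At an unadjusted edgeR p under 0.05 there were 3, all lower, against 2.71% of all genes, and none passed. Sst, the somatostatin gene, was at 82.8 ± 27.0 and 58.5 ± 8.33 CPM (log2 ratio -0.50, SE 0.204, unadjusted edgeR p = 0.0326, exact permutation p = 0.0873). Npy, the neuropeptide Y gene, was at 27.0 ± 9.34 and 19.8 ± 2.38 CPM (-0.44, SE 0.199, unadjusted edgeR p = 0.0486, exact permutation p = 0.0873). Pnoc, the nociceptin precursor, was at 8.19 ± 1.74 and 6.22 ± 1.07 CPM (-0.40, SE 0.170, unadjusted edgeR p = 0.0398, exact permutation p = 0.0714). Untreated replicate 3 was the highest library for Npy, at 42.7 CPM against 19.8 to 27.0 in the other untreated libraries, and for Sst, at 123 CPM against 50.4 to 92.0. Without it the log2 fold change was -0.22 for Npy and -0.32 for Sst, neither with an unadjusted edgeR p under 0.05, and for Pnoc it was -0.48. Over the 10 omissions of a single library, the unadjusted edgeR p was at or above 0.05 in 4 for Sst, 7 for Npy and 6 for Pnoc. The extremes were Hcrt, the orexin precursor, at -1.21 with 0 counts in 1 library, and Nppa, the atrial natriuretic peptide gene, at 0.51.

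Interneuron markers were spread on both sides of 0. Of the 16 genes in that list, 7 were above and 9 below 0, with a median of -0.08. Pvalb, the parvalbumin gene, was at 34.7 ± 5.89 and 44.8 ± 3.39 CPM (log2 ratio 0.37, edgeR p = 0.00667 and adjusted p = 0.841, exact permutation p = 0.0159), the only gene of this list at an unadjusted p under 0.05, and it did not pass. That is 1 higher gene of 16, against 2.94% of all genes, of which 53.5% were below 0.

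Peptide receptors were measured beside their ligands. Of 24 listed, 23 were tested, with 17 above and 6 below 0, a median of 0.06 and 0 at an unadjusted edgeR p under 0.05. Among all genes, 5.66% had such a p and 53.5% were below 0. The extremes were Crhr2, a receptor of the corticotropin-releasing hormone family, at -0.58 and Galr1, a galanin receptor, at 0.46. Oprk1, the receptor of dynorphin, had too few counts to be tested, with 56 counts over the 10 libraries.

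Cell type markers were compared between the groups in the same fit, and none passed. The counts of markers below 0 stand beside 53.5% of all genes below 0. The 9 tested astrocyte markers were all above 0 with a median log2 fold change of 0.33, with Fgfr3 at 0.52 and Gja1 at 0.32 (edgeR adjusted p = 0.841 for both, exact permutation p = 0.0476 and 0.0556), and their summed level was 4760 to 6602 CPM in untreated and 5264 to 7381 CPM in RG2833 libraries. Of the 10 dentate granule markers, 9 were below 0 with a median of -0.11, and of the 6 CA3 markers 5 were below 0 with a median of -0.09. On mean log2 CPM, the measure used for the relations above, these lists differed by -0.001 and -0.03 between the groups, where the astrocyte list differed by 0.31. These small differences include the low untreated replicate 3. It was at 5.08 for the dentate granule list, against 5.98 to 6.52 in the other untreated and 5.75 to 6.43 in RG2833 libraries. For the CA3 list it was at 4.71, against 6.00 to 6.35 and 5.24 to 6.15. The differences without that library were not computed. The 9 endothelial markers, the list that ran against Chga, Chgb, Scg2 and Pcsk1, were above 0 for 8, with a median of 0.25 and summed levels of 471 to 911 CPM in untreated and 550 to 998 CPM in RG2833 libraries. Of the 10 oligodendrocyte markers 8 were below 0, with a median of -0.14, and of the 10 microglial markers 7 were above 0, with a median of 0.07. Among 9 CA1 markers 7 were above 0, including Mpped1 at 0.47 (edgeR adjusted p = 0.841, exact permutation p = 0.0635). The part of these cell type lists in the values of the peptide genes was not tested.

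Each gene's most similar profiles among all tested genes are given as a description, by Pearson r of log2 CPM over the same 10 libraries. Pdyn was most like Nhlh1 (0.99) and Btbd16 (0.98), and 174 genes exceeded r = 0.9. Scg2 was most like Emc6 and Grik4 (0.99 each), the latter a kainate receptor subunit of CA3, with 573 such genes, and Chgb like Atp6v1d and Txnl1 (0.99 each) with 642. Pcsk1 was most like Tmem63c and Pak3 (0.97 each) with 110 such genes. Tac1 was most like Npas4 and Nol3 (0.95 each) with 15, and Vgf like Camk1 (0.94) with 21. Chga was most like Stmn2 and Reep1 (0.94 each) with 17. Penk was most like Pdzd3 (0.93) and Gpr183 (0.92), and Cartpt like Calb2 (0.92), the calretinin gene, and Atp7b (0.91), with 5 such genes each. Adcyap1 was most like Eif2s3x (0.92) and Bcl10 (0.91), with 2.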

How the data were processed

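Libraries of the left hippocampus were strand-specific and made from mRNA, per the labels' protocols. The submitters' processing notes name bcl2fastq 2.17, Bowtie2 2.1.0, RSEM 1.2.15, edgeR and the build rn6, without roles. The authors deposited RSEM expected counts per gene, of which 11.6% were not whole and which were rounded here, and a TMM-normalized CPM signal, whose deposited values were in every library 100% whole multiples of 1 step (tolerance 0.01 reads), at least 99.9% of them giving the rounded counts. Genes were filtered by filterByExpr (minimum count 10, minimum total 15), scaled by TMM and tested with edgeR 4.0.16 in R 4.3.3 (quasi-likelihood F test, Benjamini-Hochberg over 12161 genes, threshold 0.05). The count test on reads recovered from the CPM also called 0 genes. Log2 CPM used a prior count of 2. Exact permutation tests ran over 252 regroupings. Correlations used 100000 permutations, two-sided, and a pair was called on its adjusted Pearson p.

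The 10 genes and the lists of other genes were chosen with earlier results of these data known. All 10 genes are named; from each other list, genes at an unadjusted p under 0.05 and the highest and lowest were named, with a few fixed by name, and for likeness the 2 genes with the highest r. Some items that this rule names are not reported here. Alternatives were 2 other scalings, 2 other filters, DESeq2 1.42.0, limma 3.58.1 (voom, and log2 of the deposited CPM plus 1), the recovered reads, a replicate block, leaving out each library, and, chosen after seeing the data, leaving out the 2 choroid-rich libraries. Fits were tested on simulated data. Same-numbered samples of the groups did not vary together (0 of 5 pairs with r over 0.1). No libraries were counted as 1, the chi-square statistic per gene being at least 7.38 over 45 pairs. Promoter windows came from RefSeq (GRCr8), and no other coordinates were used, since the files' build differs.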

Additional observations from a re-analysis of the deposited data

Results flagged for a closer look

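In 5 of 52 groups of 5 values, 1 library lay far from the other 4 by Dixon's gap ratio, above its 95% critical value of 0.71; chance alone would give 2.6. Chgb in untreated rats stood out because untreated replicate 3 was lowest (gap ratio 0.847), and Scg2 for the same library (0.729). The mean of the CA3 pyramidal cell markers was lowest in that library too (0.79), and the mean of the microglial markers was highest there (0.785). The mean of the choroid plexus markers was highest in RG2833 replicate 1 (0.732). Thus 4 of the 5 fell on untreated replicate 3. These 4 are not separate events, since Scg2 and Chgb varied with each other and with both lists across the same libraries.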

How the results depend on the processing

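None of the 10 genes reached an adjusted p under 0.05 in any of the 20 alternatives run. Over all genes the count was 0 in 19 alternatives and 7 with DESeq2, which had 750 at an unadjusted p under 0.05 against 688 by edgeR. That 688 became 401 with the replicate block and ran from 375 without RG2833 replicate 4 to 1732 without untreated replicate 3, and it was 424 without RG2833 replicate 5. Cartpt kept its sign in all 19 alternatives that tested it (log2 fold change -1.69 to -0.68, adjusted p 0.283 to 1.00), and with at least 1 CPM required in every library it was not tested. Penk ran from -0.48 to -0.26, and its unadjusted p was above 0.05 without untreated replicate 1 (0.0511) and without RG2833 replicate 5 (0.0537). Tac1 (-0.74 to -0.30), Vgf (-0.38 to -0.06), Chga (-0.24 to -0.08) and Chgb (-0.38 to -0.13) kept their sign throughout. Scg2 reversed to 0.10 with limma-voom, 0.059 with the replicate block and 0.11 with limma on the deposited CPM, and ran from -0.24 to 0.16 when single libraries were left out. On such omissions Pdyn ran from -0.16 to 0.27, Pcsk1 from -0.18 to 0.052 and Adcyap1 from -0.052 to 0.26, and Adcyap1 was -0.037 without the choroid-rich libraries. The cause of these reversals was not tested. Replicate numbers only name the samples, and with the replicate block Cartpt was at -1.41 and Penk at -0.37. Centring each group moved the 7 related pairs to 12 and the 18 pairs with lists to 29; leaving out single libraries gave 3 to 9 and 6 to 17. Cartpt's 6 to 55 counts per library limit its precision.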
